A study of Homo sapiens with 4 samples.

Results

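The response to androgen ablation was followed in LAPC4 cells in which both β-TrCP genes were knocked down. LAPC4 is a human prostate cancer line, long established in culture, that responds to androgen. The contrast set the array of shRNA cells in charcoal stripped serum (shRNA CSS) against the array of shRNA cells in fetal calf serum (shRNA FCS), which are 2 of the 4 Affymetrix U133 arrays of the series. The other 2 arrays held control cells in the same sera (control CSS and control FCS), and their contrast is given beside it. CSS lacks most steroids and was used at 10%, with no androgen added. FCS was used at 10% with 100 pM methyltrienolone, a synthetic androgen, and RNA was taken after 72 h. The cells had been stably infected with a lentivirus whose shRNA targets both β-TrCP1 and β-TrCP2. By the paper this shRNA is made only when doxycycline is given, and the knockdown cells received it for 72 h. By the labels the control cells carried a GFP vector, whereas the paper's Results give the inducible shRNA vector without doxycycline. They are called control here. By the paper's Results they also differ from the shRNA cells in doxycycline, which cannot be told apart from the knockdown. The 2 sera differed in methyltrienolone and in all that charcoal removes, and these cannot be told apart. Signals are quantile normalized log2 values with a floor of 4.32 (a signal of 20). A gene was taken as measured where its brightest probe set reached a log2 signal of 6.64 (a signal of 100) on either shRNA array, which 3804 of 9193 genes did. Each array stands alone in its group, so that no change could be set against replicates or given a p-value, and changes are described by size. As a guide to error the local spread is given, which is 1.48 times the median absolute deviation of the changes of the 1000 probe sets of most similar mean signal. An array of a whole culture cannot separate fewer cells of a kind from less RNA per cell.

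Androgens are steroids that sustain the secretory cells of the prostate and drive many of their genes, and prostate cancer cells that depend on them divide less when they are withdrawn. β-TrCP is the substrate-binding part of an SCF ubiquitin ligase, which marks phosphorylated proteins such as IκB, β-catenin and several cell cycle regulators for degradation. Genes for DNA synthesis are switched on by E2F factors as cells enter S phase, and genes for mitosis later, through CCAAT and CHR elements in their promoters.

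FBXW11 (β-TrCP2) had log2 signals of 4.68 on the shRNA CSS array and 5.02 on the shRNA FCS array, against 8.19 in control CSS and 8.02 in control FCS. BTRC (β-TrCP1) was at the floor on both shRNA arrays and was dim on the control arrays, at 4.64 and 4.50. The shRNA CSS array stood apart before normalization. Its interquartile range was 2.07, against 2.69 to 2.74 on the other 3 arrays, and 35.0% of its probe sets lay under the floor, against 41.7% to 42.0%. After normalization it correlated with the other arrays at 0.934 to 0.936 over probe sets, while those correlated with each other at 0.979 to 0.989. The Affymetrix control probe set for the 3' part of 28S ribosomal RNA read 6.69 on the shRNA CSS array and 4.30 to 4.36 on the others. The control CSS array stood apart in the control probe sets for the 2 ends of messengers, where the log2 signal of the 3' part less that of the 5' part was 1.03 for ACTB, against 0.41 to 0.45 on the other 3 arrays, and 0.18 for GAPDH, against -0.01 to 0.03. Of 9 luminal prostate markers with a signal, 8 reached 100 on at least 1 array, and their summed linear signal was 6737 in shRNA CSS and 5575 in shRNA FCS. None of the basal, neuroendocrine, fibroblast, leukocyte, endothelial or erythroid markers reached 100 on any array, although the summed signal of the fibroblast markers was 178 in shRNA CSS and 113 to 118 elsewhere, and that of the neuroendocrine markers 116 and 63.3 to 63.5. The part of these differences in the results was not tested.

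With the shRNA, 199 of the 3804 genes (5.23%) lay past 2-fold on the higher side in CSS and 153 (4.02%) on the lower side, which made 352 genes (9.25%) in both directions. In control cells the same change of serum left 11 genes (0.309%) past 2-fold on the higher side and 9 (0.253%) on the lower, together 0.561% of 3564 measured. The robust SD of the changes was 0.452 with the shRNA and 0.291 in control cells. Dim genes made up most of the calls: 174 of the 199 genes higher in CSS passed the signal minimum on the shRNA CSS array alone, and 137 of the 153 lower genes on the shRNA FCS array alone, so that these had to differ. Where a signal of 100 was asked of both shRNA arrays, 25 genes (0.856%) were higher and 16 (0.548%) lower. Where it was asked of both control arrays, which the contrast does not use, 29 (0.915%) were higher and 93 (2.93%) lower. Among the 1048 genes with a mean signal of at least 400 over the 4 arrays 0 (0%) were 2-fold higher and 2 (0.191%) lower, which were RRM2 and RRM1, both subunits of ribonucleotide reductase. RRM1 passed 2-fold on its brightest probe set only, as its second gave -0.74. Next to the 2-fold line lay GMPPA at 1.01 just inside and JRK just outside (0.995) among the higher, and FBXO11 just inside (-1.01) and CISD1 just outside (-0.995) among the lower.

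**Figure D1:**
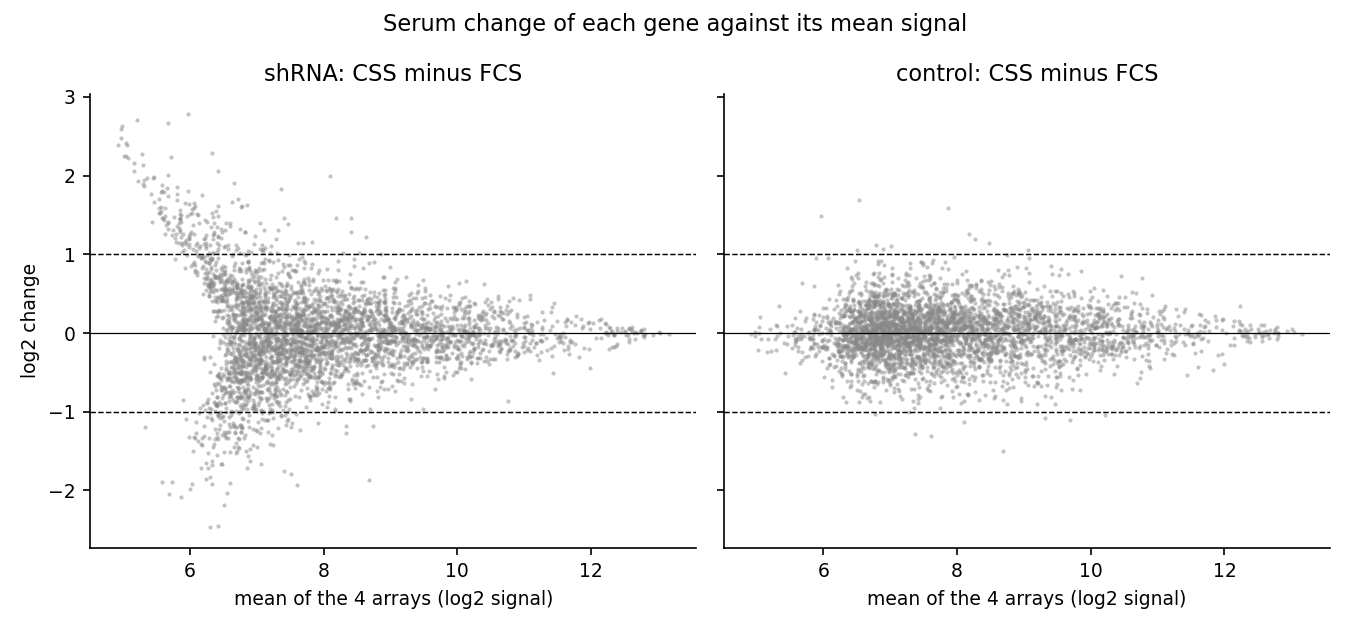
Log2 change of each of the 3804 genes (CSS minus FCS, vertical axis) against its mean log2 signal over the 4 arrays (horizontal axis), with the shRNA (left) and in control cells (right); dashed lines mark 2-fold. With the shRNA the changes widen towards dim genes, and few bright genes pass either line.

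Genes of DNA replication were lower in CSS with the shRNA. Of 38 listed genes of S phase 22 were measured, and 20 of these were lower and 2 higher. Their median log2 change was -0.83, against -0.01 over all genes, of which 50.7% were lower. At least 2-fold lower were 7 of them, or 31.8%, and 4.02% of all genes. The shRNA CSS array was the lowest of the 4 for 16 of the 22. In control cells 22 of 22 were lower, with a median of -0.55. Relative to the median of all genes the list lay between -1.02 and -0.76 under the 5 scalings tried. Of the 22, 5 passed the signal minimum on the shRNA FCS array alone, so that these had to be lower. Of the 19 with a mean signal of at least 100 over the 4 arrays, 18 were lower. By that rule 6 of the 19 were at least 2-fold lower, against 76 of 3302 genes.

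The promoters of 4 of these genes are shown because they carry the E2F motif near the start of transcription. Each is the 250 bases before the RefSeq start (GRCh38.p14), 5′ to 3′ on the strand of the gene, with the motif in capitals.
TYMS (chr18:657403-657652, plus strand): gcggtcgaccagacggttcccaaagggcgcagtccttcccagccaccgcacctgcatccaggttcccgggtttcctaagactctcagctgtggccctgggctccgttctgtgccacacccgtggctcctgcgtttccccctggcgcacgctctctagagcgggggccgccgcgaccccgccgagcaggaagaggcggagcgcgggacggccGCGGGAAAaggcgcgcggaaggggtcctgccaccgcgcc
RFC3 (chr13:33817899-33818148, plus strand): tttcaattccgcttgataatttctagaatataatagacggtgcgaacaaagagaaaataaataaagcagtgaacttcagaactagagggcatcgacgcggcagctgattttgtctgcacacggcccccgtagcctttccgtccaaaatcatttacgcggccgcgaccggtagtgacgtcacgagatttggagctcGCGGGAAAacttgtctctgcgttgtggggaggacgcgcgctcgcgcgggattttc
MCM6 (chr2:135876444-135876693, minus strand): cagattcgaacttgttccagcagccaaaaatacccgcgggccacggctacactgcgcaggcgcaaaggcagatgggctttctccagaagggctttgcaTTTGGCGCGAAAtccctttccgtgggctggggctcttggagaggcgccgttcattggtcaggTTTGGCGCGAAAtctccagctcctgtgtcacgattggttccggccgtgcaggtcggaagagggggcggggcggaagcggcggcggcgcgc
PCNA (chr20:5126623-5126872, minus strand): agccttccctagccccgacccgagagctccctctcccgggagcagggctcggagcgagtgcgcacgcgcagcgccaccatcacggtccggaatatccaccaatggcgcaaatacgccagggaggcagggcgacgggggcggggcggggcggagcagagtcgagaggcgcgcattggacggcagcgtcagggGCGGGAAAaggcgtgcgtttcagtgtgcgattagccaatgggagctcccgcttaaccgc
The motifs searched were TTTCGCGC, TTTGGCGC and TTTCCCGC on both strands, which can overlap one another. TYMS, RFC3 and PCNA carry 1 match each, read on the other strand, which begins 39, 55 and 59 bases before the start. MCM6 carries 4 matches in 2 overlapping pairs, which begin 152 and 90 bases before the start. In windows of 300 bases (250 before the start and 50 after it) a match was found for 11 of the 21 measured S-phase genes with a promoter in the table (52.4%), for 5.58% of the 3241 measured genes with a promoter and for 2.79% of all 27305 promoters. Among the genes at least 1.5-fold lower with the shRNA, 42 of 385 (10.9%) held it, and among those higher, 16 of 378 (4.23%). Among the genes at least 1.5-fold lower in both serum contrasts, 13 of 53 (24.5%) held it, and among those at least 1.5-fold higher in both, 1 of 27 (3.70%). The lower sets include S-phase genes already counted, such as TYMS and PCNA. A match is a run of letters and was not tested as a binding site.

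TYMS, thymidylate synthase, which makes the thymidine nucleotide, had log2 signals of 6.29 in shRNA CSS and 8.22 in shRNA FCS, against 7.57 in control CSS and 8.31 in control FCS. It was thus 3.80-fold lower in CSS with the shRNA (-1.92, local spread 0.50) and 1.67-fold lower in control cells. A dimmer probe set read 5.03 in shRNA CSS and the floor on the other 3 arrays (0.70). On the brighter one the 2 arrays in FCS read alike, and shRNA CSS was the lowest. RRM2, the regulated subunit of ribonucleotide reductase, read 7.70 in shRNA CSS and 9.56 in shRNA FCS, against 7.99 in control CSS and 9.48 in control FCS. It was 3.63-fold lower with the shRNA (-1.86, local spread 0.34) and 2.82-fold lower in control cells, and its 2 probe sets gave -1.86 and -1.72. Both CSS arrays thus lay well below both FCS arrays. RFC3, a subunit of the clamp loader, read 6.58 in shRNA CSS and 8.37 in shRNA FCS, against 7.40 and 7.69 in the 2 control arrays, a change of -1.80 with the shRNA and -0.28 in control cells. Its 2 probe sets gave -1.95 and -1.80 with the shRNA.

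The replicative helicase and the other factors of the fork followed. MCM6, a helicase subunit, read 6.07 in shRNA CSS and 7.49 in shRNA FCS, against 6.83 in control CSS and 7.41 in control FCS (-1.42 and -0.58). The other subunits MCM2 and MCM7 were lower by less than 2-fold, at -0.94 and -0.87. GINS1, a partner of the helicase, changed by -1.06 with the shRNA and -0.95 in control cells, and POLE2, a subunit of DNA polymerase epsilon, by -1.38 and -0.68. RRM1, the large subunit of ribonucleotide reductase, read 8.13 in shRNA CSS and 9.31 in shRNA FCS, against 8.32 and 9.21 in control CSS and control FCS, and was 2.26-fold lower with the shRNA. Its second probe set gave -0.74 with the shRNA and -1.29 in control cells. PCNA, the sliding clamp, changed by nearly the same amount in both, -0.84 with the shRNA and -0.80 in control cells (local spread 0.29), though the first became 0.16 under a common median and interquartile range. PRIM1, the small subunit of primase, was at -0.85 and CDC6, which loads the helicase, at -0.81. The 2 exceptions were MSH6, a mismatch repair protein, at 0.10, and CHAF1A, a histone chaperone of the fork, at 0.58, which passed the signal minimum on the shRNA CSS array alone. MSH6 has no settled direction, since its second probe set gave -0.26 with the shRNA. Genes outside the list with a like pattern, chosen after their values were seen, were PCLAF, a PCNA partner (-1.27 and -0.85), EXO1, an exonuclease of DNA repair (-1.67 and -0.87), ATAD2, a bromodomain ATPase (-1.75 and -0.84), and POLE3, a small subunit of polymerase epsilon (-1.90 and -0.54).

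Genes of mitosis were also lower, by less. Of 41 listed genes 39 were measured, of which 37 were lower with the shRNA and 2 higher (median -0.46), and 39 of 39 were lower in control cells, with a median of -0.32. With the shRNA 6 were at least 2-fold lower (15.4%), against 4.02% of all genes. Of the 39, 8 passed the signal minimum on the shRNA FCS array alone, so that these had to be lower. Where the mean signal over the 4 arrays was at least 100, 33 of 35 were lower (median -0.40). By that rule 4 of the 35 were at least 2-fold lower, against 76 of 3302 genes. Here shRNA FCS was the highest of the 4 arrays for 36 of the 39, against 27.8% of all genes, and shRNA CSS the lowest for only 8. MAD2L1, a spindle checkpoint protein, read 4.85 in shRNA CSS and 7.32 in shRNA FCS, against 6.10 in control CSS and 6.92 in control FCS. It had the largest decrease of any gene above the floor on both shRNA arrays, 5.53-fold (-2.47, local spread 0.83), and was 1.75-fold lower in control cells. KIF4A, a chromosome-bound kinesin, read 5.50 in shRNA CSS and 7.17 in shRNA FCS, against 6.58 and 6.64 in control CSS and control FCS, so that its change was -1.67 with the shRNA and -0.05 without it. BUB1B, a checkpoint kinase homolog, changed by -1.42 with the shRNA and -0.33 in control cells, and NDC80, which ties kinetochores to microtubules, by -1.40 and -0.29. BUB1, the checkpoint kinase, was at -1.20, and CCNA2, cyclin A2, at -1.19 and -0.62.

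Among the 10 brightest genes of the list the change with the shRNA lay below that in control cells for 4 and above it for 6. CDK1, the kinase that starts mitosis, read 9.64 in shRNA CSS and 10.00 in shRNA FCS, against 8.65 in control CSS and 9.55 in control FCS, which gave -0.37 with the shRNA and -0.90 without. KPNA2, a nuclear import receptor, read 10.24 in shRNA CSS and 10.61 in shRNA FCS, against 9.47 and 10.51 in control CSS and control FCS (-0.36 and -1.05). On these probe sets both stayed higher in shRNA CSS than in control CSS. A further probe set of KPNA2 read 8.66 in shRNA CSS and 8.71 in control CSS, with -0.89 with the shRNA and -0.71 without. For CDK1 the dimmer probe sets gave -0.40 and -0.25 with the shRNA, against -0.37 and -1.03 in control cells. The order of the 2 contrasts thus depended on the probe set. CCNB1, cyclin B1, was lower by more with the shRNA, with -0.48 and -0.27. The signs of the shRNA changes of CDK1, KPNA2 and CCNB1 turned under a common median and interquartile range, to 1.00, 1.30 and 1.01, where the median of all genes was 0.60. The 2 exceptions were CCNB2, cyclin B2, at 0.01, and CDC25B, a phosphatase that activates CDK1, at 0.36. The differences between the 2 contrasts were not tested. RACGAP1 and ECT2, which act together in cytokinesis, were 1.48-fold and 2.82-fold lower with the shRNA, and ECT2 was chosen after its value was seen.

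The promoters of BUB1B and KIF4A are shown for the CHR motif, TTTGAA, which is in capitals and was searched on both strands.
BUB1B (chr15:40160819-40161068, plus strand): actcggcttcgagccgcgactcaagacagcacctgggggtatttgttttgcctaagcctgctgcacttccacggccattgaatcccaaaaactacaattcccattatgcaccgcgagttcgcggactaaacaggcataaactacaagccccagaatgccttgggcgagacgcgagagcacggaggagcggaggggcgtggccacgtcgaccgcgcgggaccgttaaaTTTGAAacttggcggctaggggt
KIF4A (chrX:70289854-70290103, plus strand): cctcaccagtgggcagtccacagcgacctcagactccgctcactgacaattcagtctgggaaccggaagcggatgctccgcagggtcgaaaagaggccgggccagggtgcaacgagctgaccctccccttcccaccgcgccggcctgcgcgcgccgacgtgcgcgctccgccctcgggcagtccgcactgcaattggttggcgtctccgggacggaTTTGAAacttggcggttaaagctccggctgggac
The match begins 23 bases before the start in BUB1B and 34 in KIF4A. It was found in 22 of the 33 mitosis genes with a promoter in the table (66.7%), in 9.16% of the measured genes and in 15.4% of all promoters. The CCAAT motif was in 27 of the 33 (81.8%), in 40.1% of the measured genes and in 35.7% of all promoters.

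**Figure D2:**
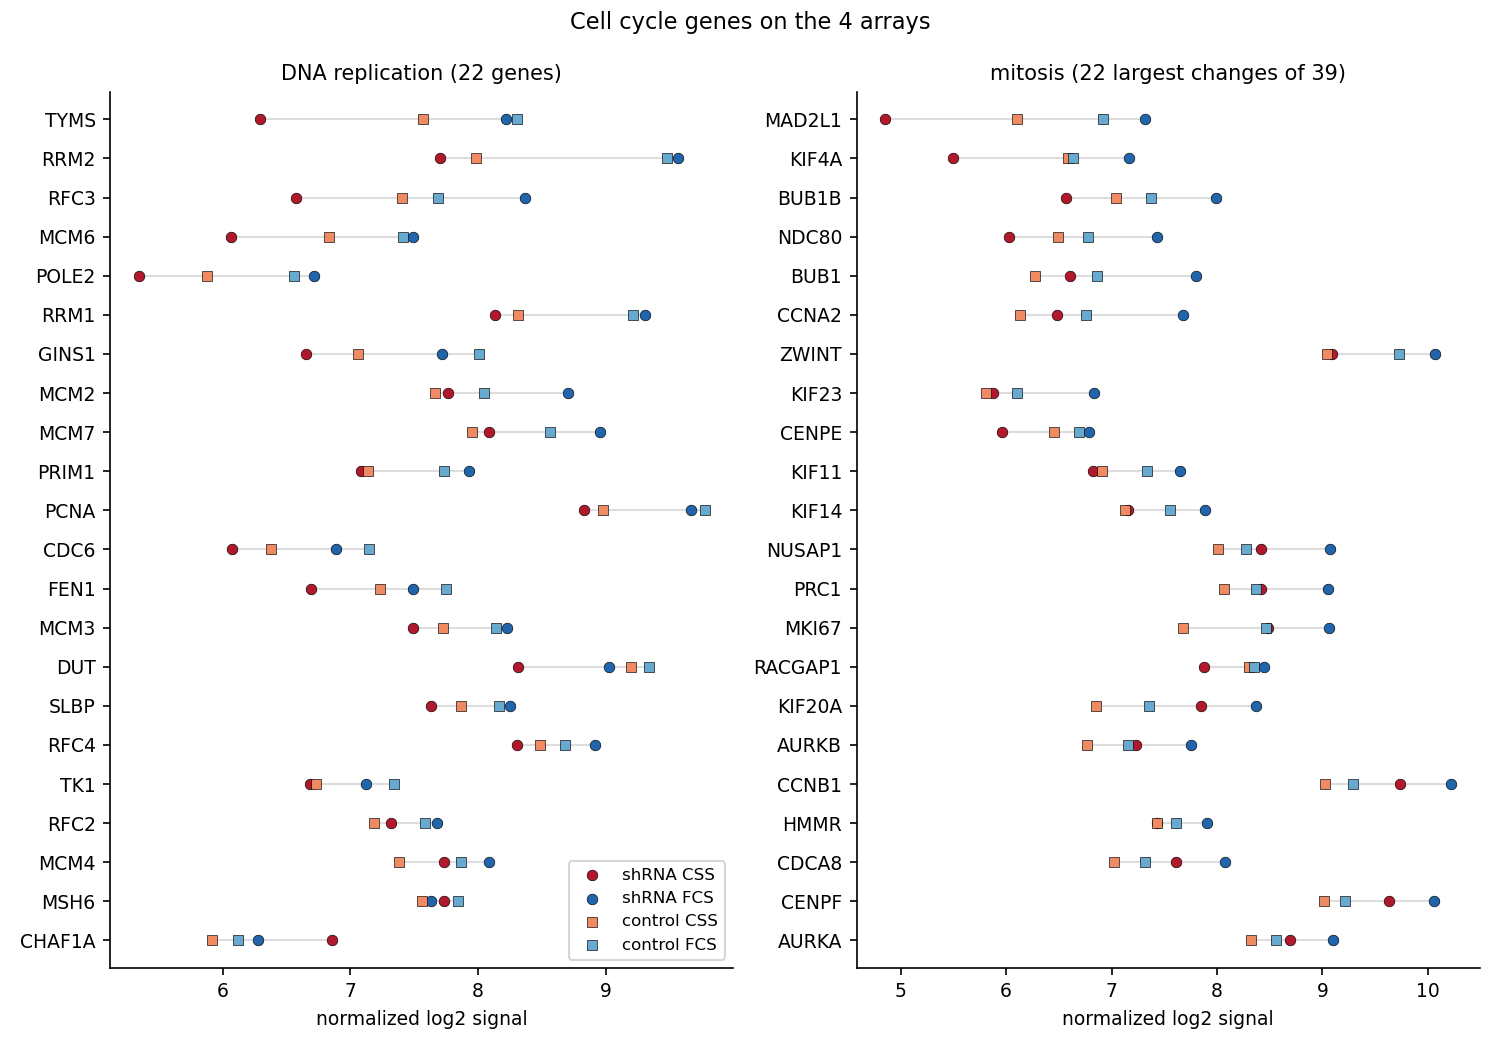
Normalized log2 signal (horizontal axis) on the 4 arrays for the 22 measured DNA replication genes (left) and the 22 mitosis genes with the largest changes (right), ordered by the change with the shRNA; circles are shRNA cells and squares control cells, in CSS (reds) and FCS (blues). For replication genes shRNA CSS is mostly the leftmost point, and for mitosis genes shRNA FCS is mostly the rightmost.

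Across the 3802 genes with a change in both cell populations, the changes with the shRNA and in control cells had a Pearson correlation of 0.313, over genes, which are not independent replicates. The 2 contrasts share no array but were normalized together. The correlation was 0.357 for mean signals of 100 to 200 and 0.588 for those of at least 1000. Of the 456 genes (12%) at least 1.5-fold lower with the shRNA 63 (13.8%) were also at least 1.5-fold lower in control cells, which is 46.7% of the 135 lower there (3.55% of the same genes). Of the 444 genes (11.7%) at least 1.5-fold higher 33 (7.43%) were shared, which is 25.6% of the 129 higher in control cells (3.39%).

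The genes higher in CSS in both included IGFBP5 and MAGED1. IGFBP5, a secreted binding protein of insulin-like growth factors, read 6.78 in shRNA CSS and 4.97 in shRNA FCS, against 6.81 in control CSS and 5.33 in control FCS. It was 3.50-fold higher with the shRNA (1.81, local spread 0.85) and 2.81-fold higher in control cells. Its dimmer probe sets gave 1.09, 0.87 and -0.66 with the shRNA, and 0.12, 0.10 and -0.04 in control cells. MAGED1, an adaptor protein of apoptosis and neurotrophin signalling, read 8.93 in shRNA CSS and 7.47 in shRNA FCS, against 8.78 in control CSS and 7.53 in control FCS, and was 2.76-fold and 2.38-fold higher (1.46, local spread 0.38). For both genes the 2 arrays of each serum lay close together and the sera apart. TUBA1A, an alpha tubulin, read 8.14 in shRNA CSS and 7.03 in shRNA FCS, against 6.31 in control CSS and 4.62 in control FCS. It was higher in CSS (1.11 and 1.69) and also higher with the shRNA in either serum. RABAC1, which works in vesicle traffic, was at 1.39 and 0.90.

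Others were higher by smaller amounts in both. ERBB2, the HER2 receptor kinase, read 8.59 in shRNA CSS and 7.58 in shRNA FCS, against 8.79 and 8.18 in control CSS and control FCS, which made 1.01 with the shRNA and 0.61 without it. NOTCH3, a Notch receptor, was at 0.82 and 0.83, and SREBF1, which encodes the sterol-regulated transcription factor SREBP1, at 0.80 and 0.84. SLIT2, a guidance ligand, was at 0.78 and 0.77, and SOX11, a transcription factor, at 0.88 and 0.90. MAPT, the microtubule protein tau, was 2.32-fold higher with the shRNA, with its 2 probe sets past the signal minimum at 1.17 and 1.22 and a dimmer one at -0.39, and changed by 0.69 in control cells.

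**Figure D3:**
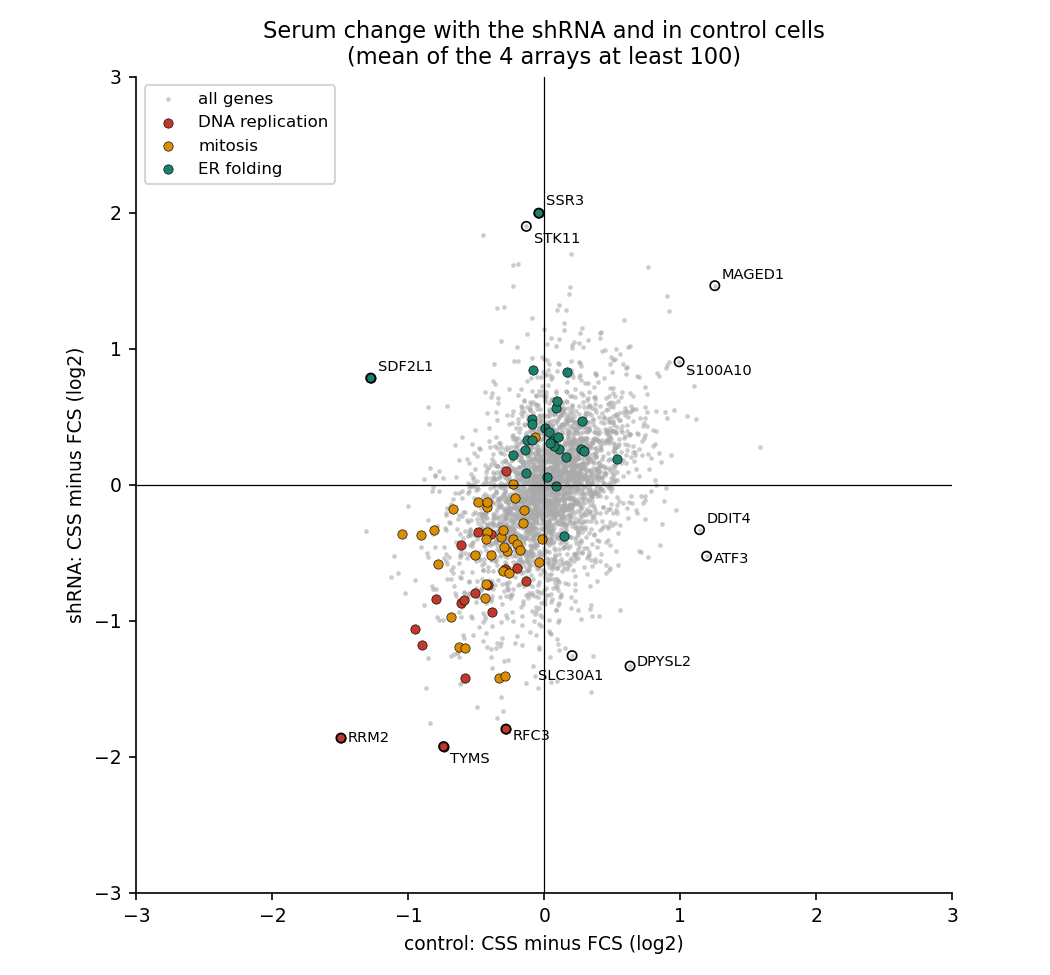
Log2 change of CSS over FCS with the shRNA (vertical axis) against that in control cells (horizontal axis) for the 3268 genes with a mean signal of at least 100 over the 4 arrays and a change in both; colours mark DNA replication, mitosis and ER folding genes. Replication and mitosis genes lie mostly to the lower left, while ER folding genes lie above the zero line with little change in control cells.

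Genes of the annexin and S100 families, calcium-dependent membrane-binding proteins and their partners, were mostly higher in CSS. Of 10 measured of 23 listed, 9 were higher and 1 lower with the shRNA (median 0.51), and 8 were higher in control cells (median 0.27), but none changed 2-fold with the shRNA. S100A10 read 10.02 in shRNA CSS and 9.11 in shRNA FCS, against 8.43 in control CSS and 7.44 in control FCS (0.90 and 0.99, local spread 0.27). Its partner ANXA2 read 10.28 in shRNA CSS and 9.63 in shRNA FCS, against 8.52 in control CSS and 7.87 in control FCS, a change of 0.65 in each, with 3 probe sets at 0.62 to 0.65. For both partners the order of the arrays was shRNA CSS, shRNA FCS, control CSS and control FCS, with steps of a like size for serum. ANXA1 read 7.67 in shRNA CSS and 7.21 in shRNA FCS, against 5.44 in control CSS and 5.48 in control FCS, so that serum made 0.46 with the shRNA, within its local spread of 0.47, and -0.04 without it. The first was -0.06 with the values as deposited. Relative to all genes the median of the list lay between 0.47 and 0.68 under the 5 scalings.

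Semaphorins and tetraspanins, guidance ligands and membrane organisers, showed 12 of 16 measured genes higher in CSS with the shRNA (median 0.36) and 11 in control cells (median 0.29). SEMA5A changed by 0.80 and 0.68, though its second probe set with the shRNA gave 0.22. CD151, a tetraspanin that binds integrins, was at 0.77 and 0.27, and TSPAN5 at 0.54 and 0.82. TSPAN4 was the only one past 2-fold (1.49, local spread 0.82), and it passed the signal minimum on the shRNA CSS array alone, with 6.71 there and 5.22 in shRNA FCS, against 5.26 and 5.29 in control CSS and control FCS. SEMA3C went the other way, with 7.13 in shRNA CSS and 7.66 in shRNA FCS, against 5.72 in control CSS and 5.17 in control FCS (-0.53 and 0.54).

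Genes of protein folding and glycosylation in the endoplasmic reticulum were mostly higher in CSS with the shRNA, by less than 2-fold except for SSR3. Among 28 measured genes, 26 lay above 0 and 2 below it, with a median of 0.32, against 49.0% of all genes above 0, and 18 were higher in control cells, with a median of 0.05. Relative to all genes the median of the list lay between 0.33 and 1.28 under the 5 scalings. The array that stood out for these genes was shRNA FCS, which was the lowest of the 4 for 25 of the 28, against 24.7% of all genes. HSPA5, the main chaperone of this compartment, read 11.22 in shRNA CSS and 10.74 in shRNA FCS, against 11.16 in control CSS and 11.25 in control FCS (0.48, local spread 0.20, and -0.09). MANF, a secreted folding-stress protein, read 10.47 in shRNA CSS and 9.85 in shRNA FCS, against 10.69 and 10.60 in control CSS and control FCS (0.62, local spread 0.23). In both genes shRNA CSS lay near the control arrays and shRNA FCS below all 3.

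SSR3, a subunit of the complex beside the protein-conducting channel, read 8.48 in shRNA CSS and 6.49 in shRNA FCS, against 8.68 in control CSS and 8.72 in control FCS. It was 3.99-fold higher in CSS with the shRNA (2.00, local spread 0.47), on 1 probe set, and was the only gene of the list past 2-fold. SEC61A1, the channel itself, read 9.30 in shRNA CSS and 8.46 in shRNA FCS, against 9.06 and 9.14 in control CSS and control FCS (0.84, local spread 0.32). DNAJB9, a co-chaperone of HSPA5, was at 0.83 (-0.24 on a dimmer probe set), XBP1, a transcription factor of the folding response, at 0.51, and PDIA3, a disulfide isomerase, at 0.47. The 2 genes that were lower were SEL1L, of the degradation pathway, at -0.38, and RPN1, of the glycosylation enzyme, at -0.01. SPDEF, an ETS factor of secretory epithelia that is also counted among androgen-induced genes, had a like pattern, with 8.85 in shRNA CSS and 7.83 in shRNA FCS, against 8.75 in control CSS and 8.66 in control FCS. Its change was 1.02 (local spread 0.38), and its 4 probe sets gave 0.94 to 1.48.

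**Figure D4:**
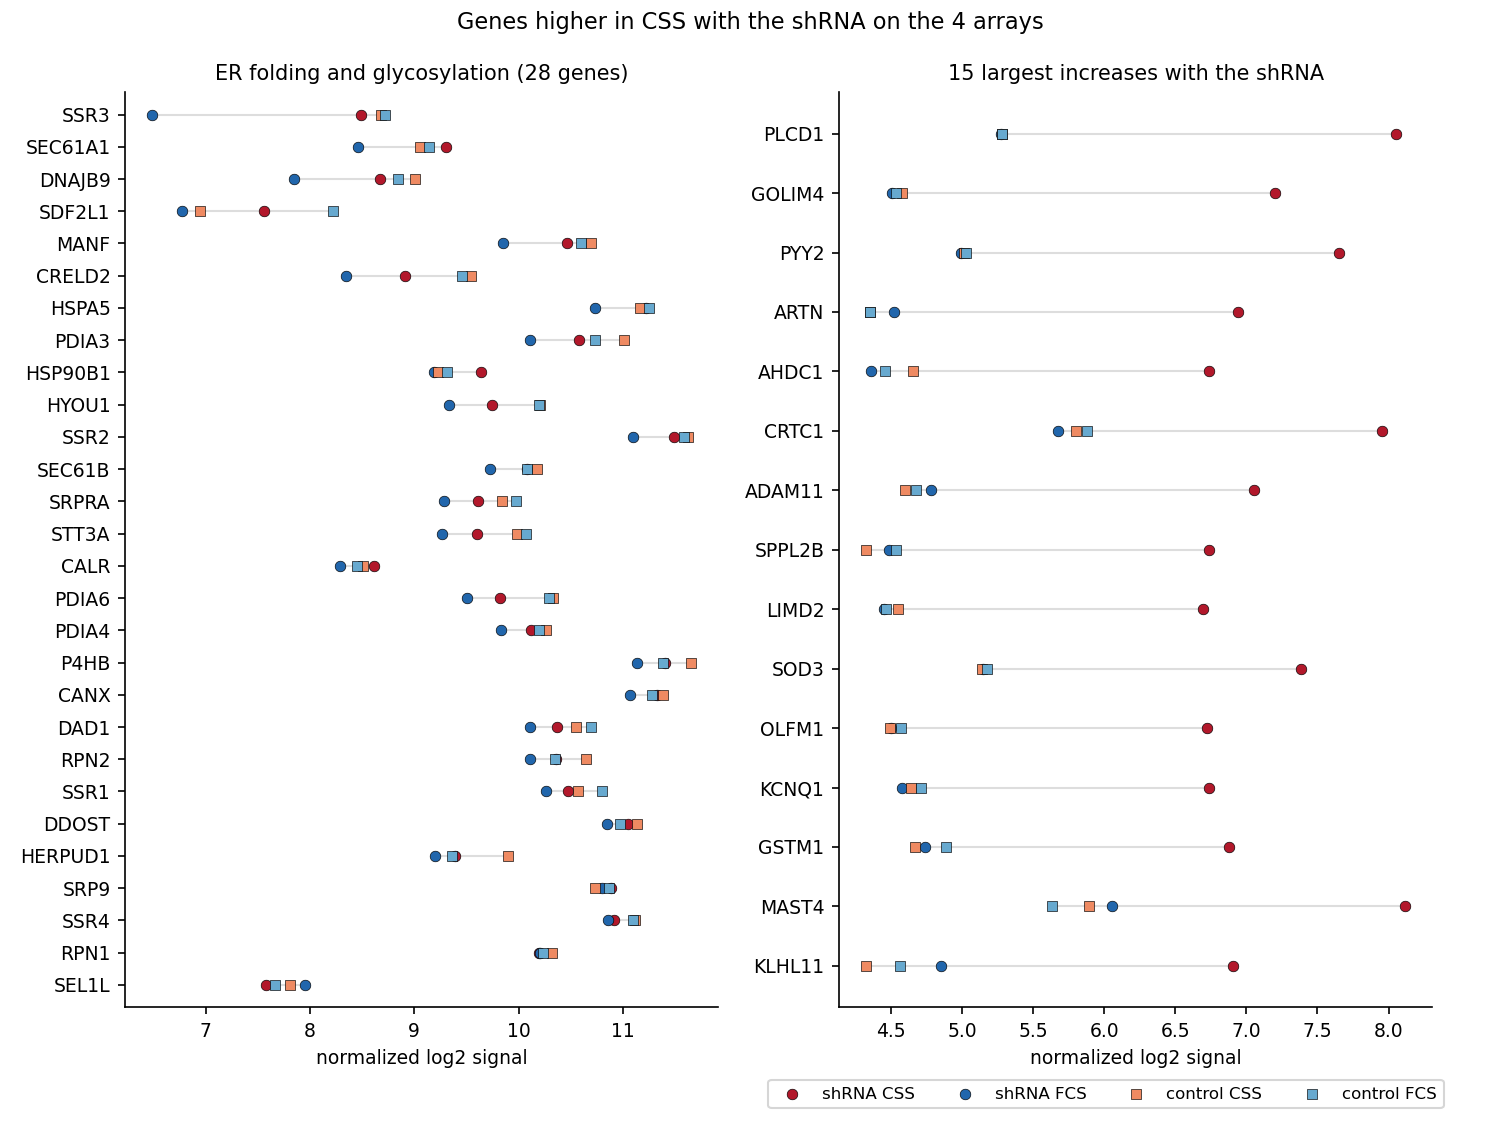
Normalized log2 signal (horizontal axis) on the 4 arrays for the 28 measured ER folding genes (left) and the 15 largest increases with the shRNA among genes above the floor on both shRNA arrays (right); circles are shRNA cells and squares control cells, in CSS (reds) and FCS (blues). On the left shRNA FCS is the lowest point for 25 genes, and on the right shRNA CSS is alone on the high side while the other 3 arrays lie together.

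The largest increases had another shape. PLCD1, a phospholipase C, read 8.05 in shRNA CSS and 5.27 in shRNA FCS, against 5.28 in both control arrays (2.78, 6.87-fold, local spread 0.66). GOLIM4, a Golgi membrane protein, read 7.20 in shRNA CSS and 4.50 in shRNA FCS, against 4.58 and 4.53 in control CSS and control FCS (2.70), though its dimmer probe set gave -0.39. CRTC1, a coactivator of CREB, was 4.86-fold higher (2.28) and SOD3, the secreted superoxide dismutase, 4.71-fold higher (2.24), again on the shRNA CSS array alone. Of the 199 genes at least 2-fold higher, 193 had their highest signal on that array, against 1124 of all 3804 measured genes. Under 100 on the other 3 arrays were 156, against 307 of all. Both counts were in large part set by the choice of genes higher on that array. Those 3 arrays lay within 0.5 of each other on the log2 scale for 164, against 2668 of all. In control cells 98 of the 199 were higher in CSS and 100 lower, against 1964 and 1831 of all. All of these genes rest on the array that stood apart.

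Several named regulators were in this set. STK11, the kinase LKB1, read 8.04 in shRNA CSS and 6.14 in shRNA FCS, against 6.15 in control CSS and 6.28 in control FCS, and its 2 probe sets gave 1.90 and 2.06. MAST4, a microtubule-associated kinase, gave 2.06 on both of its probe sets. E2F4, a repressor of the E2F family, read 8.09 in shRNA CSS and 6.47 in shRNA FCS, against 6.33 and 6.53 in control CSS and control FCS (1.62, local spread 0.49). CDKN2A, which encodes inhibitors of cell division, was at 1.64 and REST, a repressor of neuronal genes, at 1.74. The dimmer probe set of E2F4 gave 0.21 and that of REST -0.72, each under the signal minimum on both shRNA arrays. Of the genes named here that changed at least 2-fold, 20 had further probe sets under that minimum, and for 7 of these 1 such probe set had the opposite sign. Of the 969 genes with at least 2 probe sets past the minimum, 11 (1.14%) were 2-fold higher on all of them, which also included FKBP8, CASKIN2 and MBD3. Over 970 genes the changes of the 2 brightest probe sets correlated at 0.555 with the shRNA and 0.638 in control cells.

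Of the 152 genes at least 2-fold lower with a change in control cells, 115 (75.7%) were also lower there, against 48.2% of all genes. Their median change there was -0.28. The shRNA CSS array, which stood apart, was the lowest of the 4 for 144 of the 153 lower genes, against 1150 of all 3804. That count was in large part set by the choice of genes lower on that array. On the control arrays the lower genes had median log2 signals of 6.70 (CSS) and 6.92 (FCS). Those of the 2-fold higher genes were 5.80 and 5.78, so the 2 sets were not compared there at like signal. KCTD9 read 4.89 in shRNA CSS and 7.34 in shRNA FCS, against 6.46 in control CSS and 6.97 in control FCS (-2.45). ZWILCH, a kinetochore protein, was 4.09-fold lower (-2.03 and -0.49). PPP2R3C, a regulatory subunit of protein phosphatase 2A, read 4.68 in shRNA CSS and 6.87 in shRNA FCS, against 7.02 and 7.48 in control CSS and control FCS (-2.19). PER2, a circadian repressor, was at -1.92 with the shRNA and -0.18 without it. Its dimmer probe set went the other way, with 5.51 in shRNA CSS and the floor on the other 3 arrays (1.19). ID2, an inhibitor of differentiation factors, was at -1.51 and -0.54. TDO2, which breaks down tryptophan, read 5.90 in shRNA CSS and 7.79 in shRNA FCS and was at the floor on both control arrays, so that it had a fold with the shRNA only (3.71-fold lower). The genes that were 2-fold lower on each of at least 2 probe sets were 8 in number (0.826%), namely RFC3, RRM2, SSX2IP, MRM2, TMPO, FMR1, CYB5B and HSPH1, though a dimmer probe set of SSX2IP gave 0.01. HSPH1, a large heat shock protein, read 6.02 in shRNA CSS and 7.65 in shRNA FCS, against 6.72 and 7.22 in control CSS and control FCS (-1.63 and -0.49).

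Zinc handling genes were lower with the shRNA in all 12 measured of 21 listed (median -0.40), while in control cells 8 were lower and 4 higher (median -0.15). SLC30A1, a zinc exporter, read 6.75 in shRNA CSS and 8.0 in shRNA FCS, against 7.05 in control CSS and 6.84 in control FCS (-1.26, local spread 0.46, and 0.20). SLC39A8, a zinc importer, read 6.20 in shRNA CSS and 7.53 in shRNA FCS, against 6.72 and 6.80 in control CSS and control FCS (-1.34 and -0.08), and its second probe set past the minimum gave -0.73. For both transporters shRNA FCS was high and the other 3 arrays were nearer each other. The metallothioneins, small zinc-binding proteins, were lower in both populations. MT2A read 7.92 in shRNA CSS and 8.59 in shRNA FCS, against 7.37 in control CSS and 8.50 in control FCS (-0.68 and -1.13), and MT1X changed by -0.77 and -0.82. Genes of the MT1 family are close copies of each other, so that their probe sets may share signal.

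Sterol and fatty acid synthesis went in opposite directions in the 2 populations, by amounts under 2-fold. With the shRNA 15 of 21 measured genes were lower and 6 higher (median -0.29), whereas in control cells 6 were lower and 15 higher (median 0.19), and the difference was not tested. Relative to all genes the list with the shRNA stayed below 0 under the 5 scalings, from -0.28 to -0.08. ACAT2, an acetyl-CoA thiolase, read 7.65 in shRNA CSS and 8.42 in shRNA FCS, against 7.48 in control CSS and 7.86 in control FCS (-0.77 and -0.38). HMGCS1, HMG-CoA synthase, was at -0.57 and -0.16, and NSDHL, a later enzyme of the path, at -0.72 and 0.10. LSS, which closes the sterol rings, read 7.58 in shRNA CSS and 7.76 in shRNA FCS, against 8.73 in control CSS and 7.77 in control FCS (-0.19 and 0.97). SQLE, squalene epoxidase, was at -0.56 on its brighter probe set and 0.62 on the other, and has no settled direction. MVK, mevalonate kinase, was at 0.81 and 0.38.

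The targets of ATF4, the factor of the amino acid response, were higher in control CSS in 20 of 22 (median 0.43), of which 4 were at least 2-fold higher, against 0.309% of all genes in that contrast. With the shRNA 14 of 22 were higher (median 0.12), and none by 2-fold. DDIT4, an inhibitor of mTORC1, read 8.65 in shRNA CSS and 8.98 in shRNA FCS, against 8.72 in control CSS and 7.58 in control FCS (-0.33 and 1.14). ATF3, a stress factor, read 8.24 in shRNA CSS and 8.76 in shRNA FCS, against 8.63 in control CSS and 7.44 in control FCS (-0.52 and 1.19). In both genes control FCS was the low array, and both shRNA arrays and control CSS were high. With the shRNA the sign of both turned under a common median and interquartile range, to 0.55 for DDIT4 and 0.16 for ATF3. CHAC1, which breaks down glutathione, was at -0.01 and 1.06. STC2, a secreted glycoprotein, was at 0.28 and 1.59, and its second probe set gave -0.23 and 0.51. ASNS, asparagine synthetase, changed by 0.43 and 0.72 and PSPH, of serine synthesis, by -0.96 and 0.35. Glycolysis genes had a median of -0.13 with the shRNA and 0.18 in control cells. Relative to all genes the first changed sign under 3 of the 5 scalings. Hypoxia-responsive genes had medians of 0.06 and 0.38 over 10 genes.

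Androgen-induced genes had no common direction with the shRNA. Of 18 measured of 41 listed 9 were higher and 9 lower (median -0.03), and in control cells 11 were higher and 7 lower (median 0.16). SGK1, a serum- and steroid-regulated kinase, read 5.73 in shRNA CSS and 7.40 in shRNA FCS, against 7.41 in control CSS and 7.71 in control FCS. It was 3.17-fold lower with the shRNA (-1.66, local spread 0.69) and 1.23-fold lower without it. HOMER2, a scaffold protein, was just short of 2-fold lower (-0.97 and -0.02). KLK3, which encodes PSA, read 8.37 in shRNA CSS and 8.02 in shRNA FCS, against 9.74 in control CSS and 9.0 in control FCS (0.34 and 0.73), with its 2 probe sets at -0.01 and 0.34, and with the shRNA -0.10 on the values as deposited. KLK2, a related secreted protease, read 6.59 in shRNA CSS and 7.07 in shRNA FCS, against 9.0 in control CSS and 8.30 in control FCS (-0.48, local spread 0.60, and 0.70), and its 2 dimmer probe sets gave 0.28 and 0.62. Both kallikreins were thus lower with the shRNA in either serum, on their brightest probe sets by more than serum moved them. The other probe set of KLK3 read 7.93 in shRNA CSS and 7.94 in shRNA FCS, against 9.92 in control CSS and 8.89 in control FCS. There serum moved control cells by 1.03, more than the distance between the 2 FCS arrays. FKBP5, a receptor co-chaperone, read 7.26 in shRNA CSS and 7.22 in shRNA FCS, against 7.14 in control CSS and 8.03 in control FCS (0.04 and -0.88). TMPRSS2, a membrane protease, was at -0.14 and -0.48 on its brighter probe set and at 1.10 with the shRNA on the other.

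AHR, the aryl hydrocarbon receptor, read 7.06 in shRNA CSS and 7.10 in shRNA FCS, against 5.82 in control CSS and 5.38 in control FCS. Serum thus made -0.04 with the shRNA (local spread 0.52) and 0.44 in control cells. Its target CYP1A1, a monooxygenase, read 5.98 in shRNA CSS and 6.83 in shRNA FCS, against 5.25 in control CSS and 5.51 in control FCS (-0.85, local spread 0.71, and -0.26). Of the 7 measured genes of the pathway 1 was higher and 6 lower with the shRNA, with a median of -0.19. Relative to all genes the sign of this median turned with the values as deposited and under a common median and interquartile range. HPGD, which inactivates prostaglandins, was under the signal minimum on both shRNA arrays in all 4 of its probe sets and is not counted among the measured genes. Its brightest probe set read 5.19 in shRNA CSS and 6.35 in shRNA FCS, against 7.06 in control CSS and 6.89 in control FCS.

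In opposite directions in the 2 populations, 5 genes changed at least 1.5-fold. PMAIP1, which encodes the proapoptotic protein NOXA, read 5.21 in shRNA CSS and 7.25 in shRNA FCS, against 5.45 in control CSS and 4.82 in control FCS. It was 4.12-fold lower in CSS with the shRNA (-2.04, local spread 0.75) and 1.56-fold higher in control cells, and shRNA FCS was the only high array. DPYSL2, a microtubule regulator of neurons, read 6.11 in shRNA CSS and 7.44 in shRNA FCS, against 6.98 in control CSS and 6.35 in control FCS (-1.33 and 0.63). MDFIC, a transcriptional regulator, was at -0.81 and 0.71. SDF2L1, an ER folding protein, read 7.56 in shRNA CSS and 6.77 in shRNA FCS, against 6.94 in control CSS and 8.22 in control FCS (0.78 and -1.28). OAZ3, an antizyme of polyamine synthesis, was at 0.85 and -0.73.

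Of 61 measured genes of the mitochondrial respiratory chain 49 were lower with the shRNA (median -0.16) and 40 in control cells (median -0.08). Relative to all genes the sign of the first median turned under 3 of the 5 scalings. NDUFA5, a subunit of complex I, was the only one past 2-fold (-1.10 and -0.60). Of 18 genes of SCF ligases and cullins 17 were lower with the shRNA (median -0.16) and 13 in control cells (median -0.10), a sign that turned with the shRNA under a common median and interquartile range. CAND1, which exchanges substrate receptors on cullins, was at -0.85, with 3 probe sets from -1.17 to -0.70, RNF7, a RING subunit, at -0.75 and CUL5 at -0.52. Transcripts of β-TrCP substrates were lower in 11 of 17 (median -0.24) and in 10 of 17 in control cells (median -0.04). Cytosolic ribosomal proteins, measured in 50 genes, had a median of 0.02 in each population and lay between -0.07 and 0.20 with the shRNA.

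Genes of ribosome biogenesis were lower in 12 of 15 with the shRNA (median -0.24) and in 13 in control cells (median -0.18). Proteasome subunits were lower in 21 of 28 (median -0.19) and 20 (median -0.11), cytosolic heat shock chaperones in 11 of 13 (median -0.21) and 9 (median -0.21), and splicing factors in 33 of 45 (median -0.11) and 31 (median -0.15). Relative to all genes the signs with the shRNA turned under 3 of the 5 scalings for chaperones and splicing factors. For the proteasome the sign turned under 2 of the 5. Tubulins were lower in 8 of 14 with the shRNA (median -0.19), and relative to all genes the sign of this median turned under 3 of the 5 scalings. TBCE, a chaperone of tubulin folding, changed by -1.23 and -0.63. Among the genes of polyamine synthesis and turnover, 4 of 9 were higher and 5 lower, where SMS, spermine synthase, was at -1.27 and ARG2, the mitochondrial arginase, at -1.71. Of 8 measured luminal markers 6 were higher with the shRNA (median 0.27) and 5 in control cells (median 0.27). Of 6 genes of insulin-like growth factor signalling 5 were higher (median 0.30), as in control cells (median 0.45). Of 7 p53 targets 5 were lower with the shRNA (median -0.23) and 2 in control cells (median 0.12). The BCL2 family had 4 of 6 genes higher (median 0.43) and 1 at least 2-fold lower, which was PMAIP1. Relative to all genes the sign of this median turned under a common median and interquartile range. The other lists with at least 6 measured genes had medians from -0.15, for housekeeping genes, to 0.13, for immediate early genes. Lists with 1 to 3 measured genes, among them keratins, interferon-stimulated genes, NF-κB targets and androgen-repressed genes, were not summarised.

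**Figure D5:**
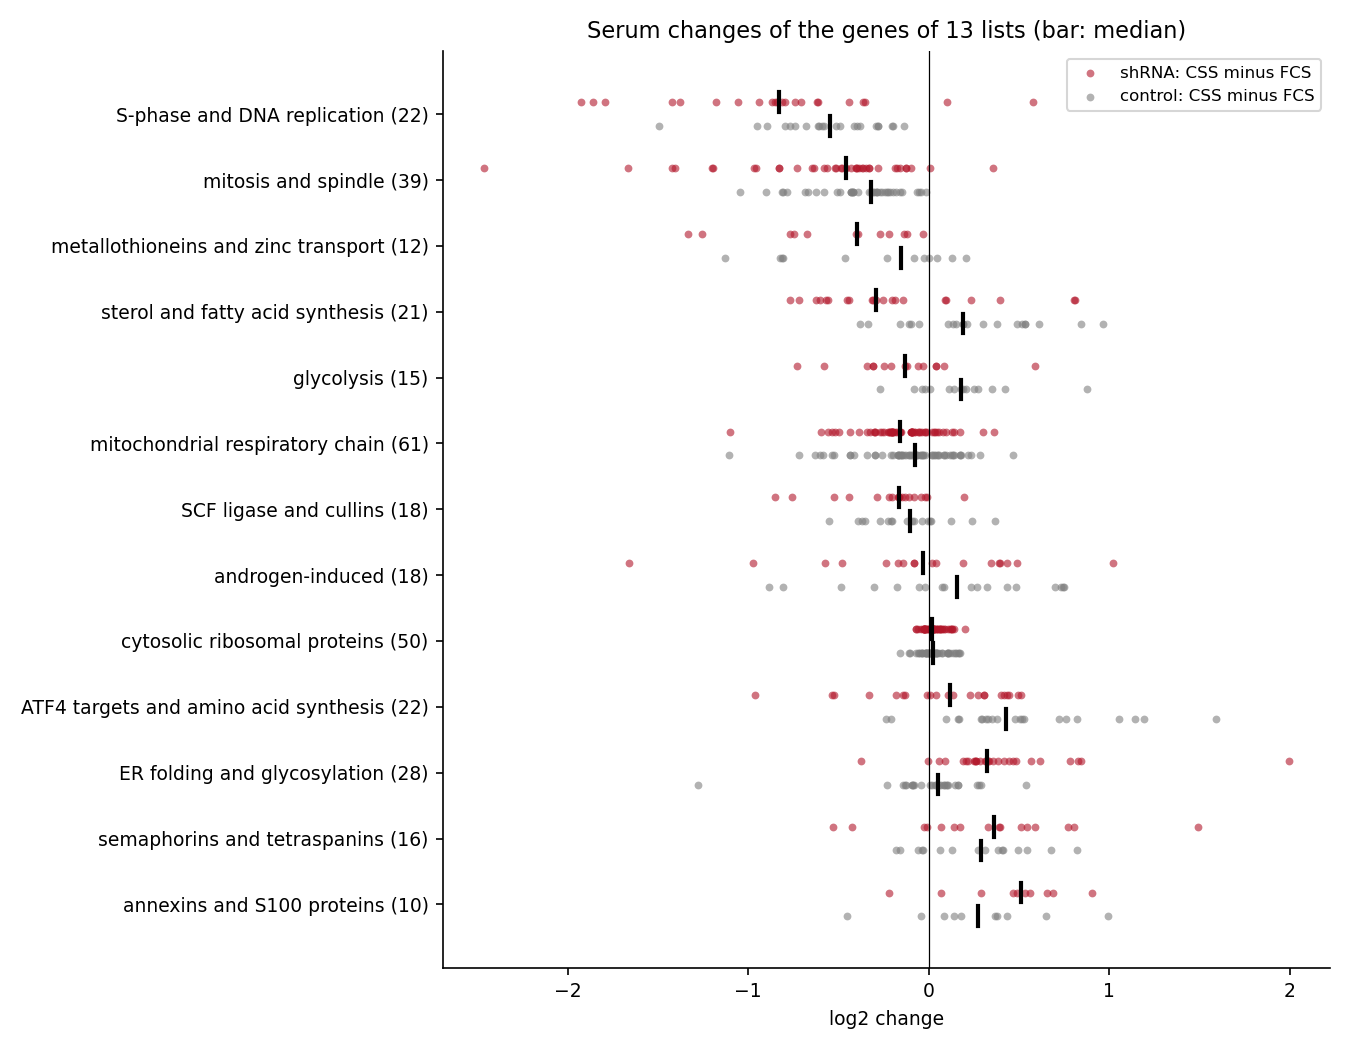
Log2 change of CSS over FCS (horizontal axis) for each measured gene of 13 lists, with the shRNA (red, upper row of each list) and in control cells (grey, lower row); bars are medians and numbers in brackets are genes. DNA replication genes lie farthest to the left, with medians of -0.83 and -0.55, and annexin and S100 genes farthest to the right with the shRNA, with 0.51.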

How the data were processed

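Total RNA of LAPC4 cells was labelled and hybridised to 4 Affymetrix U133 arrays, with a single array per serum and vector. The deposited table holds log2 signals for 22277 probe sets. MAS5 is named by the labels and by the authors, who then kept probe sets called present with an intensity of 20 or more, took log2 and quantile normalized. The deposited columns do not share a distribution and hold no present calls, so that filter and normalization were applied here to the 15678 probe sets that reached 20 on at least 1 array, followed by a floor of 20. Whether the values are MAS5 signals unchanged was not tested, and the number of arrays limits the precision. Amounts of RNA differ between the sources and are not given.

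By the platform annotation 19070 probe sets stand for 1 gene, 1043 for several and 2164 are unnamed. The last 2 kinds and 62 Affymetrix control probe sets were left out, and symbols were updated through a RefSeq gene table. The brightest probe set by the mean of the 4 arrays stood for a gene. Calls were changes of at least 2-fold. No test was possible with 1 array per group. The steps were tested on simulated data.

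Named genes were the 15 largest changes each way, those called on at least 2 probe sets, those changed at least 1.5-fold in both serum contrasts (10 each way, same or opposite direction), up to 4 per list and a fixed set including AHR, KLK2 and TYMS; further list members were named after their values were seen. The members, the 50 gene lists and the rules were chosen with earlier results of these data known. Promoter windows came from RefSeq (GRCh38.p14) and held 85.2% of the measured genes. Alternatives were 5 other scalings, 4 other signal minimums, 2 other floors, other treatments of probe sets and 2 other folds; normalization without the control arrays, a signal minimum on the control arrays and all alternatives for the control contrast were chosen after seeing the data. Python 3.11.15, numpy 2.4.6, pandas 2.3.3 and statsmodels 0.14.6 were used.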

Additional observations from a re-analysis of the deposited data

Results flagged for a closer look

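For 5 genes the serum change with the shRNA was opposite in sign to that in control cells, by at least 1.5-fold in each, and the difference was not tested. These were PMAIP1 (-2.04 with the shRNA and 0.64 in control cells), DPYSL2 (-1.33 and 0.63), MDFIC (-0.81 and 0.71), OAZ3 (0.85 and -0.73) and SDF2L1 (0.78 and -1.28). The median of the sterol and fatty acid synthesis genes was -0.29 with the shRNA and 0.19 in control cells, and that of the glycolysis genes -0.13 and 0.18, and neither difference was tested. Outside the genes, the control probe set for the 3' part of 28S ribosomal RNA had a log2 signal of 6.69 on the shRNA CSS array, against 4.35 in shRNA FCS, 4.30 in control CSS and 4.36 in control FCS.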

How the results depend on the processing

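No paired analysis was possible because each condition has 1 array, and no array could be left out of the contrast. The counts of genes at least 2-fold higher and lower in CSS with the shRNA, 199 and 153, followed the scaling. With the values as deposited they were 35 and 642 (5.17% of calls higher, with the median of all genes at -0.46), under a common median 92 and 300 (23.5%, median -0.16), and under a common median and interquartile range 1243 and 138 (90.0%, median 0.60), against 56.5% higher in the values reported. They also followed the signal minimum: 25 and 16 with 100 on both shRNA arrays, 43 and 76 on the mean of the 4 arrays (36.1% higher), 29 and 93 on both control arrays (23.8%, chosen after seeing the data), 6 and 4 with 400 on either array, and 690 and 580 with none. A floor of 100 gave 42 and 29, leaving out probe sets whose IDs end in _x_at or _s_at 108 and 85, a 3-fold line 57 and 28, a 1.5-fold line 444 and 456, and genes called on each of 2 or more probe sets 11 and 8. The control contrast had 20 calls, and 13 with 100 on both its arrays. The cause of these differences was not tested beyond the smaller number of genes that stricter rules leave.

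List medians, taken less the median of all genes, changed sign for 13 lists. With the values as deposited they became 0.028 for heat shock chaperones, 0.016 for the proteasome, 0.012 for the AhR pathway, 0.068 for tubulins, 0.061 for glycolysis, 0.14 for the respiratory chain, 0.090 for splicing factors, 0.012 for histones and 0.15 for housekeeping genes. Under a common median they became 0.00025 for heat shock chaperones, 0.041 for tubulins, 0.033 for glycolysis, 0.11 for the respiratory chain, 0.067 for splicing factors and 0.12 for housekeeping genes. Under a common median and interquartile range they became 0.57 for heat shock chaperones, 0.52 for the proteasome, 0.014 for SCF ligases, 0.48 for the AhR pathway, -0.035 for the BCL2 family, 0.67 for tubulins, 0.61 for glycolysis, 0.76 for the respiratory chain, 0.57 for splicing factors, 0.46 for histones and 0.84 for housekeeping genes. Ribosomal proteins were at -0.0021 with no signal minimum, and transcripts of β-TrCP substrates at 0.15 with 400 on either array. The cause was not tested. The lists of DNA replication, mitosis, zinc handling, sterol synthesis, ER folding, annexins and semaphorins kept their sign in each alternative run. Of the named genes' values under the alternatives, 2455 moved by less than the local spread and 274 by more. Of 88 such genes changed at least 2-fold 0 changed sign, and of 164 changed by less 60 did in at least 1 alternative. Of the 61 of these that the text names, 19 did: AHR, ANXA1, ATF3, CCNB1, CCNB2, CDC25B, CDK1, CHAC1, DDIT4, FKBP5, KLK3, KPNA2, LSS, MSH6, PCNA, RPN1, SQLE, STC2 and TMPRSS2.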
